A study of Mus musculus with 34 samples.

Results

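Resting luminal tumour cells are the keratin 8/18 epithelial cells of MMTV-Wnt1 mammary tumours in which no transcript of 2 proliferation genes was counted. They were chosen by a rule on measured values. A cell was kept with at least 500 UMIs (unique molecular identifiers, each standing for 1 captured RNA molecule), at least 200 genes and under 20% mitochondrial UMIs. A kept cell was a member with at least 1 Epcam UMI, at least 5 Krt8 and Krt18 UMIs per 10000, no Ptprc UMI (Ptprc encodes the pan-leukocyte antigen CD45), under 1 Krt5 and Krt14 UMI per 10000 and no Mki67 or Top2a UMI. This rule found 3531 members among 43197 kept cells and 46386 barcodes in all, of which 2584 members among 39181 kept cells came from the 10 sorted libraries with a labelled treatment.

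The tumours arose from the MMTV-Wnt1 transgene, in which the mouse mammary tumour virus promoter drives Wnt1 in the mammary epithelium, and were transplanted into C57BL6j mice. In 4 libraries CD45-positive cells had been extracted, 2 from untreated mice and 2 from mice given 5 consecutive doses of 4 mg/kg doxorubicin and harvested 48 h later. In 6 further libraries CD4/8-positive T cells had been extracted magnetically: 1 untreated, 1 at 48 h after the same doxorubicin course, and 4 in which the doxorubicin course was followed, from 48 h on, by 3 antibody doses 72 h apart with harvest 24 h after the last. Those 4 arms received 400 ug of control IgG, 200 ug of anti-PD1 with 200 ug of IgG, 200 ug of anti-CTLA4 with 200 ug of IgG, or 200 ug of each of both antibodies. The members are therefore tumour cells carried through an immune cell extraction. The labels do not state whether libraries of 1 group came from separate mice, so p-values measure the spread between these libraries, and each CD4/8 group is 1 library with no replicate check. A table of unsorted tumour cells held the other members, 563 and 384, in 2 barcode sets that no label ties to a treatment. They enter no comparison of treatments, and their levels are only described at the end.

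Luminal cells line the ducts and alveoli of the mammary gland, carry keratins 8 and 18, and include the progenitors that can make milk proteins. Doxorubicin is an anthracycline that poisons topoisomerase II and breaks DNA. Broken DNA stabilises the transcription factor p53, which switches on genes of cell cycle arrest, repair and apoptosis. Interferon-gamma, secreted by T and natural killer cells, induces guanylate-binding proteins, immunity-related GTPases, chemokines, antigen presentation genes and the checkpoint ligand PD-L1 (Cd274). A cell in which p53 has stopped division can stay metabolically active, and the rule sets such cells beside untreated cells in which no Mki67 or Top2a transcript was counted. In a cell with few UMIs that count does not show that the cell was not dividing.

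In units of 1000000 UMIs the sorted libraries held between 16.9 and 93.7. The members' summed UMIs, on which each value below rests, ranged from 777852 to 20132025. Members per library were 169 and 77 in the untreated CD45 libraries, 51 and 164 in the doxorubicin CD45 libraries, and 167, 1098, 88, 583, 115 and 72 in the CD4/8 libraries in the order untreated, doxorubicin 48 h, IgG, anti-PD1, anti-CTLA4 and both antibodies. Untreated CD45 replicate 2 stood apart: its members had a median of 1455 UMIs and 815 genes, against medians of 8369 to 25500 UMIs in the other sorted libraries, and 35 of its 77 members had under 1000 UMIs. Near the keratin threshold, 2 to 26 members per sorted library had 5 to 10 keratin UMIs per 10000, and 0 to 24 cells just outside had 3 to 5. Between 5 and 66 members per sorted library passed with a single Epcam UMI. Barcode lists of the sorted libraries were not used here, so barcodes shared between libraries were not counted. No doublet caller was run.

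Members made up 4.72% and 4.28% of kept cells in the untreated CD45 libraries and 3.45% and 4.1% after doxorubicin. In the CD4/8 libraries the share was 4.35% untreated, 14.4% at 48 h after doxorubicin, 2.43% with IgG, 9.17% with anti-PD1, 3.34% with anti-CTLA4 and 2.09% with both antibodies. How many tumour cells pass an immune extraction sets these shares, so they are not the tumours' content. The share of luminal cells left out for a Mki67 or Top2a UMI was 51.2% and 47.3% untreated against 13.6% and 12.8% after doxorubicin in the CD45 libraries, and 47.3% against 13.5% in the CD4/8 pair. In the later arms it was 46.0% with IgG, 41.2% with anti-PD1, 31.5% with anti-CTLA4 and 20.9% with both antibodies. With each cell thinned to 1500 UMIs these shares were 18.3% and 16.7% against 5.56% and 5.62%, 15.0% against 1.81%, and then 10.9%, 17.7%, 9.38% and 8.05%. The rule used these 2 genes, so the shares describe the selection and were not tested.

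**Figure D1:**
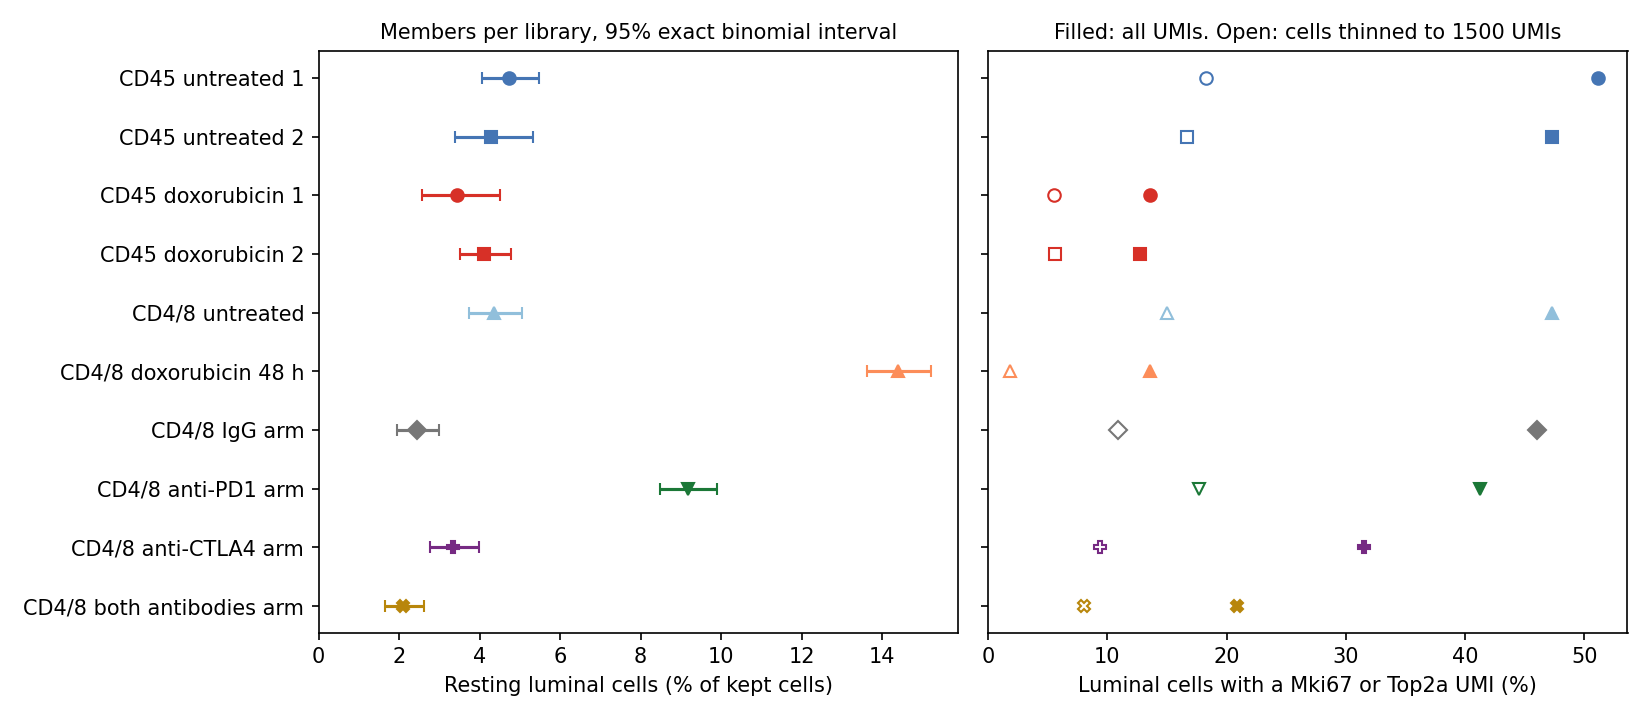
Left, resting luminal cells as a percentage of kept cells in each of the 10 sorted libraries, with 95% exact (Clopper-Pearson) binomial intervals, which cover counting error only. Right, the percentage of luminal cells with a Mki67 or Top2a UMI, filled for all UMIs and open for cells thinned to 1500 UMIs, where the 3 libraries at 48 h after doxorubicin have the 3 lowest open values.

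The label held against luminal markers that the rule did not use. Levels are given throughout in CPM, the members' UMIs of a gene scaled to 1000000 UMIs per library, without regard to gene length. Krt19, a luminal keratin, lay between 833 and 1983 CPM over the 10 sorted libraries, against at most 19.9 in Ptprc-positive cells. The tight junction gene Cldn3 lay between 643 and 1036, against at most 8.76. Elf3, an epithelial transcription factor, lay between 111 and 275, and the prolactin receptor Prlr between 58.7 and 198. Cd24a, a surface antigen that leukocytes also carry, lay between 319 and 434 and did not set the members apart, with up to 568 in Ptprc-positive cells. Of the rule's own genes, Epcam lay between 1268 and 1948, Krt8 between 2334 and 4107 and Krt18 between 3168 and 5661. The milk gene Csn3 (kappa-casein), between 2816 and 5368, and the progenitor gene Lcn2 (lipocalin 2), between 4235 and 8179, were also high. Other genes of the milk and progenitor lists varied widely. In the untreated CD45 libraries the mean was 28.49 for the milk gene Csn1s1 and 50.65 for the progenitor gene Aldh1a3, but 7104 for the progenitor gene Wfdc18. UMIs assigned to Wnt1, which cannot tell the transgene from the mouse's own gene and may miss a transgene transcript with another end, were at 1.29 or less in every CD45 library and could not be tested.

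Doxorubicin was tested with edgeR's quasi-likelihood model on the members' summed UMIs in the 4 CD45 libraries, with Benjamini-Hochberg adjustment over the 10363 genes that passed the low-count filter and a threshold of 0.05. The model called 24 genes higher, 0.232% of those tested, and 54 lower, 0.521%, and 1089 genes had an unadjusted p under 0.05. Of the 24 genes that rose 8 were on the list of p53 targets, and of the 54 that fell 30 were on an interferon or MHC list. The median log2 change over all tested genes was 0.01, and 0.22 when group means were scaled by library totals alone, so a shift of that size depends on the scaling. Other scalings left the medians of the p53, interferon and MHC lists on the same side of 0.

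Of 43 p53 targets on the list, 39 were tested and 8 rose, none fell, and the list's median log2 change was 0.79. Cdkn1a encodes p21, the cyclin-dependent kinase inhibitor that carries p53's arrest signal. It was at 66.4 and 79.7 CPM untreated and at 1228 and 571.6 CPM after doxorubicin, a log2 change of 3.47 (SE 0.44, adjusted p = 0.0049). The groups lay far apart, and the mean after doxorubicin, 900 ± 464 (SD, n = 2), stood beside 1189 in Ptprc-positive cells of the same libraries. Psrc1, which encodes a spindle-associated protein, went from 12.4 and 16.7 to 147 and 186 (log2 change 3.37, SE 0.31, adjusted p = 0.000375), and Ptprc-positive cells held only 2.13 untreated and 5.25 after doxorubicin. Neither gene's groups overlapped, which held for all 24 risen and all 54 fallen genes and so sets neither gene apart.

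Among regulators of p53 and of apoptosis, Bax, the pore-forming death effector, rose from 68.8 and 91.3 to 240 and 272 (log2 change 1.49, SE 0.28, adjusted p = 0.035). Zmat3, an RNA-binding p53 target, rose from 4.38 and 9.0 to 55.4 and 47.8 (2.99, SE 0.41). Eda2r, a member of the TNF receptor family, had no UMI in either untreated library and 57 UMIs after doxorubicin, at least 21.0-fold higher against a floor of 3 UMIs over the untreated group. Mdm2, the ubiquitin ligase that degrades p53, was at 36.7 and 43.7 untreated and at 127 and 59.9 after doxorubicin and did not pass (adjusted p = 0.40), nor did Trp53 itself, at 67.3 and 99.0 against 75.7 and 81.3. The remaining calls of the list were Ccng1 (cyclin G1, log2 change 2.28), Aen (an exonuclease of apoptosis, 2.51) and Ephx1 (epoxide hydrolase, 2.18). Ephx1 went from 33.1 and 25.7 to 165 and 152.

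The CD4/8 pair, which shares no library with that test, showed the p53 genes in the same direction. All 8 called targets were at least 2-fold higher in the doxorubicin library than in the untreated one. Over the list, 26 of 41 measured targets were at least 2-fold higher and none at least 2-fold lower, against 11.1% and 3.4% of the 12241 genes with at least 30 UMIs in the pair. The list's median log2 ratio was 1.34, beside 0.21 for all those genes. Cdkn1a stood at 56.3 in the untreated and 1174 in the doxorubicin library, a ratio of 20.8 (95% exact interval 18.5 to 23.5, for counting error only, as for all ratios of single libraries below). Zmat3 stood at 3.00 and 30.9, a ratio of 10.3 (6.20 to 18.5). With doxorubicin CD45 replicate 2 left out, 4 p53 targets were called, and in members with no UMI of the G2/M list, where 3 genes in all were called, none was. Members with no G2/M list UMI numbered only 40 and 18 untreated and 16 and 79 after doxorubicin, and 3427 genes were tested in them. Of the 8 targets, 6 stood in members at or above their level in Ptprc-positive cells. Of all 24 genes that rose in the CD45 libraries, 23 were higher in this pair, 20 of them at least 2-fold.

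**Figure D2:**
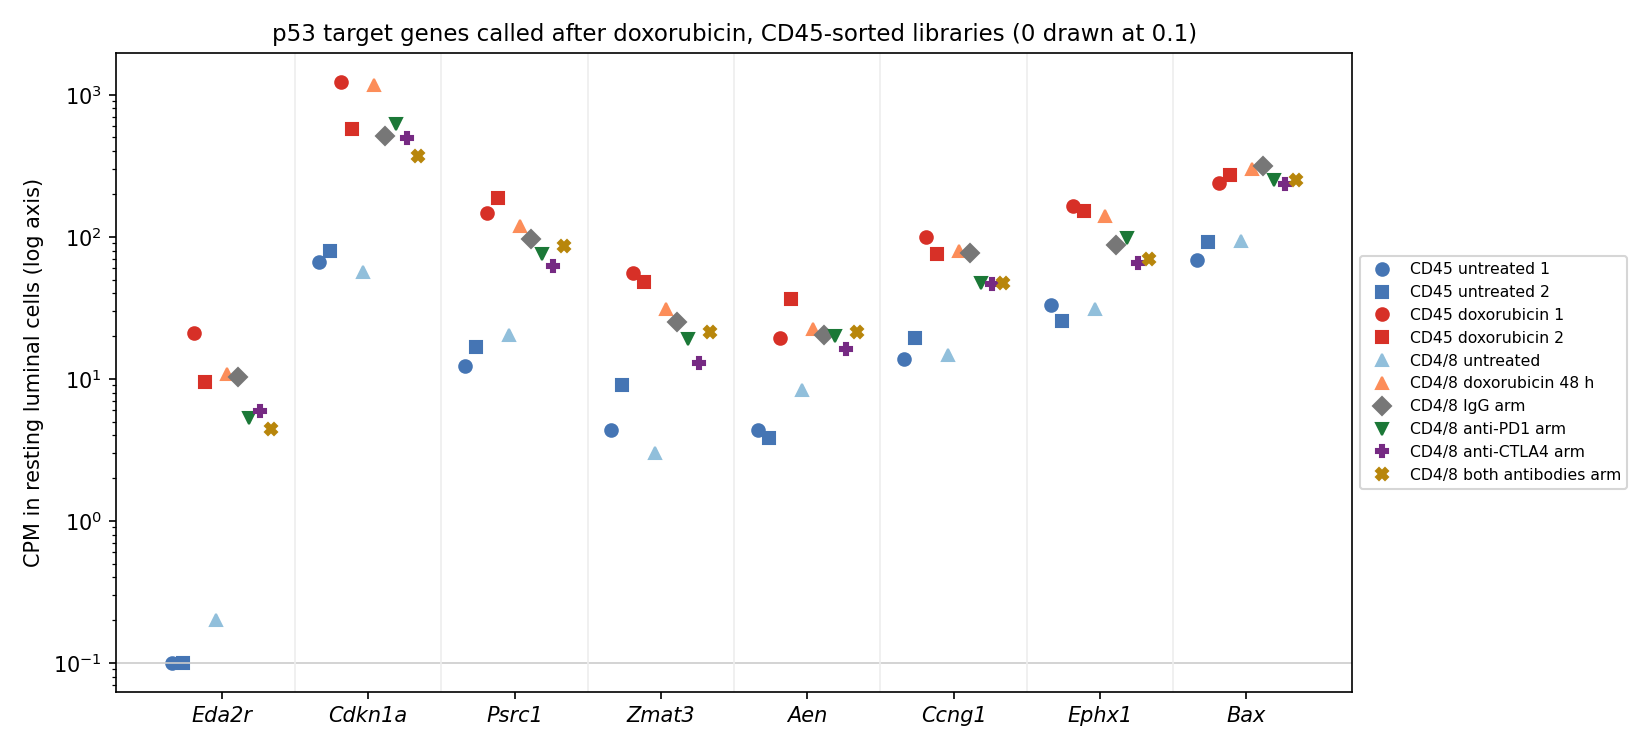
CPM (log axis) of the 8 called p53 targets in resting luminal cells, 1 point per sorted library, coloured by group. For each gene the 3 libraries at 48 h after doxorubicin lie above the 3 untreated ones, and Eda2r is drawn at 0.1 where it had no UMI.

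In the later arms the summed level of the p53 list lay between that of the untreated and the 48 h library. The sum was 2533 untreated, 5885 at 48 h, and 4190, 4394, 4244 and 4059 with IgG, anti-PD1, anti-CTLA4 and both antibodies. Cdkn1a was at 510 in the IgG arm, 0.435 times its level at 48 h (0.411 to 0.460), at 619 with anti-PD1, 492 with anti-CTLA4 and 373 with both. Bax was at 316 in the IgG arm beside 299 at 48 h, and Psrc1 at 96.6 beside 119. Against IgG, 1 of 39 measured p53 targets was at least 2-fold higher and none lower with anti-PD1, none of 38 differed by 2-fold with anti-CTLA4, and 1 of 34 was higher and 3 lower with both antibodies. Over all genes measured, 5.01% were higher and 3.24% lower with anti-PD1, 3.76% and 1.87% with anti-CTLA4, and 3.64% and 4.42% with both. Counts this small do not set the p53 list apart from all genes. From 48 h to the IgG arm, 8 of 41 measured targets were at least 2-fold lower and none at least 2-fold higher, while over all 12086 genes measured in that pair 9.89% were lower and 4.03% higher.

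Outside that list, 16 genes rose. Clca3a2, a chloride channel accessory gene, went from 42.1 and 25.7 to 279 and 460 (log2 change 3.15, SE 0.35, adjusted p = 0.0015). Gas6, a ligand that bridges dying cells to the TAM receptors of phagocytes, went from 102 and 93.8 to 372 and 436 (1.83, SE 0.28, adjusted p = 0.0099). Pros1, another TAM ligand, went from 44.0 and 24.4 to 130 and 177 (1.86, SE 0.32). As for every called gene, the groups of both ligands did not overlap. In the CD4/8 pair Gas6 was 5.85-fold higher (5.29 to 6.48) and Pros1 1.68-fold (1.45 to 1.94).

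Csn1s1 (alpha-S1-casein) rose from 19.7 and 37.3 to 117 and 185 (log2 change 2.30, SE 0.34), while the other 8 tested milk genes did not pass. It stood at 26.8 and 150 in the CD4/8 pair and at 11.9 in the IgG arm. Chil1, a chitinase-like secreted protein, rose from 15.8 and 2.57 to 216 and 373 (4.41, SE 0.53), beside 4.88 and 149 in Ptprc-positive cells. The heparan sulfate proteoglycan Gpc6 (1.96, SE 0.39) and the non-coding host gene Snhg15 (1.91, SE 0.32) also rose.

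Spp1 (osteopontin) and the neutrophil chemokine Cxcl3 were called too, but at levels far below those in Ptprc-positive cells: Spp1 reached 39.0 and 75.9 in members and 1408 and 1802 in Ptprc-positive cells of the doxorubicin libraries, and Cxcl3 11.7 and 38.6 beside 902 and 654. In the CD4/8 pair Spp1 was higher with doxorubicin (1.80 and 39.0, beside 123 and 409 in Ptprc-positive cells) and Cxcl3 lower (2.20 and 1.49). The neutrophil marker list moved the same way: its 12 genes summed to 157 and 47.6 in untreated members and 324 and 534 after doxorubicin, and to 2058 and 2337 against 32313 and 23590 in Ptprc-positive cells. Between 1 and 6 of the 12 were at 0 in each library's members. The part of immune cell RNA in these 2 rises was not tested.

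Interferon-induced genes fell in the CD45 libraries. Of 38 genes on the interferon-gamma response list, 34 were tested, 23 fell and none rose, and the median log2 change was -2.69. Igtp, an immunity-related GTPase of cell-autonomous defence, was at 174 and 227 untreated and at 14.0 and 8.61 after doxorubicin (log2 change -4.42, SE 0.37, adjusted p = 0.00029). Members held more Igtp untreated than Ptprc-positive cells did (71.8). Its relative Irgm1 was at 104 and 172 against 16.4 and 21.0 (-3.05, SE 0.33, adjusted p = 0.0012). The guanylate-binding protein gene Gbp2 was at 235 and 222 against 25.8 and 19.1 (-3.59, SE 0.32, adjusted p = 0.000375), with 290 in untreated Ptprc-positive cells. Groups did not overlap for any of these 3, as for every called gene. Genes of these 2 families share sequence with close copies, so their separate values are uncertain.

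The T-cell-attracting chemokine Cxcl9 was at 98.0 and 186 untreated and had 0 and 1 UMI after doxorubicin. Over the pooled UMIs of each group its untreated level was 495 times higher (exact interval 88.5 to 19585), and untreated Ptprc-positive cells held 808, more than the members. Tnfsf10, the death ligand TRAIL, fell from 31.6 and 43.7 to 5.46 and 6.06 (-2.87, SE 0.37). Irf1 did not pass, at 137 and 154 against 90.6 and 53.6 (adjusted p = 0.16).

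Without doxorubicin CD45 replicate 2, 7 genes of the interferon-gamma list were called, and 2 in members with no G2/M list UMI. Immune cells of the same libraries held these transcripts too: the list summed to 2998 and 4083 CPM in untreated members and 724 and 732 after doxorubicin, and to 5481 and 6174 against 2569 and 2295 in Ptprc-positive cells. The 14 macrophage markers summed to 405 and 1081 in untreated members against 447 and 743, with at most 1 at 0, and the 14 T and natural killer cell markers to 10.4 and 79.7 against 4.68 and 6.69, with 2 to 8 at 0. The part of immune cell RNA in the fall was not tested, and of 30 fallen genes on an interferon or MHC list 12 stood untreated in members at or above their Ptprc-positive level.

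Of the antigen presentation genes, some fell. Of 24 MHC class I genes 23 were tested and 6 fell, with a list median of -1.26. Without doxorubicin CD45 replicate 2 none was called, without doxorubicin replicate 1 there were 3, without untreated replicate 1 there were 11, and with cells thinned to 1500 UMIs there was 1. Tap1, which pumps peptides into the endoplasmic reticulum, fell from 172 and 211 to 58.6 and 63.4 (log2 change -1.85, SE 0.27), and the immunoproteasome gene Psmb9 from 119 and 193 to 21.9 and 38.2 (-2.54, SE 0.33). The light chain B2m, at 2203 and 2867 against 1332 and 1047, did not pass (adjusted p = 0.090), nor did the heavy chain H2-K1 (0.17). Of 12 MHC class II genes 7 were tested and 1, H2-DMa, fell. Cd74, the invariant chain, was at 321 and 1882 against 24.2 and 7.33 and did not pass (adjusted p = 0.35); the 2 untreated libraries differed widely. Of 33 type I interferon genes 30 were tested, 4 fell and none rose, with a median of -1.23. Without doxorubicin CD45 replicate 1 this was 2, without untreated replicate 1 it was 9, and with thinned cells none was called.

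Cd274, the gene of PD-L1, was at 12.2 and 14.1 untreated and at 0.78 and 5.10 after doxorubicin. Its log2 change of -2.11 (SE 0.59) did not pass (adjusted p = 0.17). Cd80, a ligand of CD28 and CTLA4, had too few UMIs to test, at 1.46 and 0 against 3.12 and 0.96. Of 27 checkpoint ligand genes 17 were tested, and Lgals9 (galectin 9) alone was called, falling from 90.9 and 123 to 32.8 and 54.5 (log2 change -1.48, SE 0.29, adjusted p = 0.046). Nectin2, a ligand of TIGIT and CD226, was at 77.1 and 83.6 against 49.97 and 53.6 (adjusted p = 0.24).

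The interferon fall was not seen in the CD4/8 pair. There, of 36 measured genes of the interferon-gamma list, 9 were at least 2-fold higher after doxorubicin and none at least 2-fold lower. Over all 12241 genes of the pair 11.1% were at least 2-fold higher and 3.4% lower. The list's median log2 ratio was 0.44 beside 0.21 for all genes. Igtp stood at 70.3 and 82.6, a ratio of 1.17 (1.05 to 1.32). Cxcl9 stood at 15.0 and 207, a ratio of 13.9 (11.02 to 17.6). Cd274 stood at 0.999 and 7.80, a ratio of 7.81 (3.28 to 24.4). The untreated CD4/8 library thus lay below both untreated CD45 libraries for each of these 3 genes, and the doxorubicin CD4/8 library above both doxorubicin CD45 libraries. Immune markers were higher in the same doxorubicin library: the 14 macrophage markers summed to 365 and 713 in the pair, with 1 and 0 at 0, and 9 of 12 measured were at least 2-fold higher. The 14 T and natural killer cell markers summed to 18.2 and 38.9, with 4 and 2 at 0 and 5 of 10 measured at least 2-fold higher, and the 12 neutrophil markers to 31.6 and 87.3, with 5 and 1 at 0 and 5 of 6 measured at least 2-fold higher. Their part in the values of the pair was not tested. With 1 library per CD4/8 group the difference between the sorts was not tested.

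In a fit of all 6 libraries with the sort as a term, which called 1.06% of 10996 genes higher and 1.02% lower, 13 p53 targets rose. No interferon-gamma or MHC class I gene was called there, with list medians of -1.49 and -0.70. Of the 24 genes called higher in the CD45 libraries 21 were also called there, and of the 54 called lower 12 were. Of the 30 fallen genes on an interferon or MHC list, 21 were higher and 9 lower in the CD4/8 doxorubicin library, with a median log2 ratio of 0.23 beside 0.21 for all genes of the pair. Of the other 24 fallen genes 11 were higher and 13 lower there, 4 at least 2-fold higher and 10 at least 2-fold lower, with a median of -0.24. The 10 lower ones include Krt79, a keratin (65.9 and 8.25 in the CD4/8 pair), and Col9a1, a collagen (88.5 and 13.3, a ratio of 0.150, 0.128 to 0.175). Col9a1 had fallen from 63.2 and 102 to 9.37 and 19.8 in the CD45 libraries (log2 change -2.60, SE 0.36). Metallothionein 1 (Mt1), at 1071 and 1268 against 391 and 191 (-2.18, SE 0.39), was lower in the CD4/8 pair as well, at 848 and 295.

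**Figure D3:**
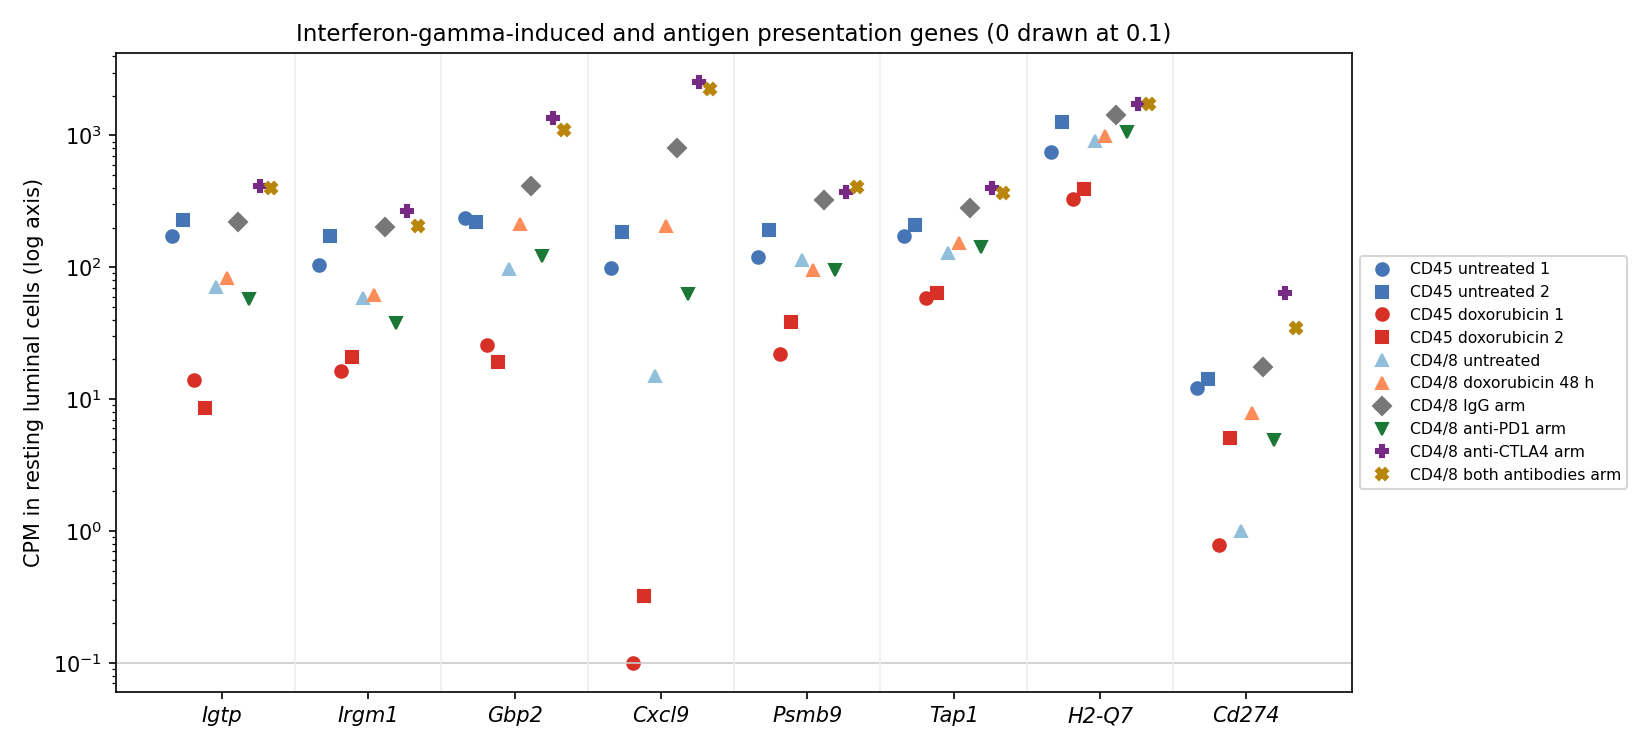
CPM (log axis) of 8 interferon-induced and antigen presentation genes in resting luminal cells, 1 point per library. The 2 doxorubicin CD45 libraries lie below the 2 untreated CD45 libraries for every gene, and the anti-CTLA4 and both-antibodies libraries are the 2 highest for each, although for Irgm1 the both-antibodies library (205) lies beside the IgG arm (203).

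**Figure D4:**
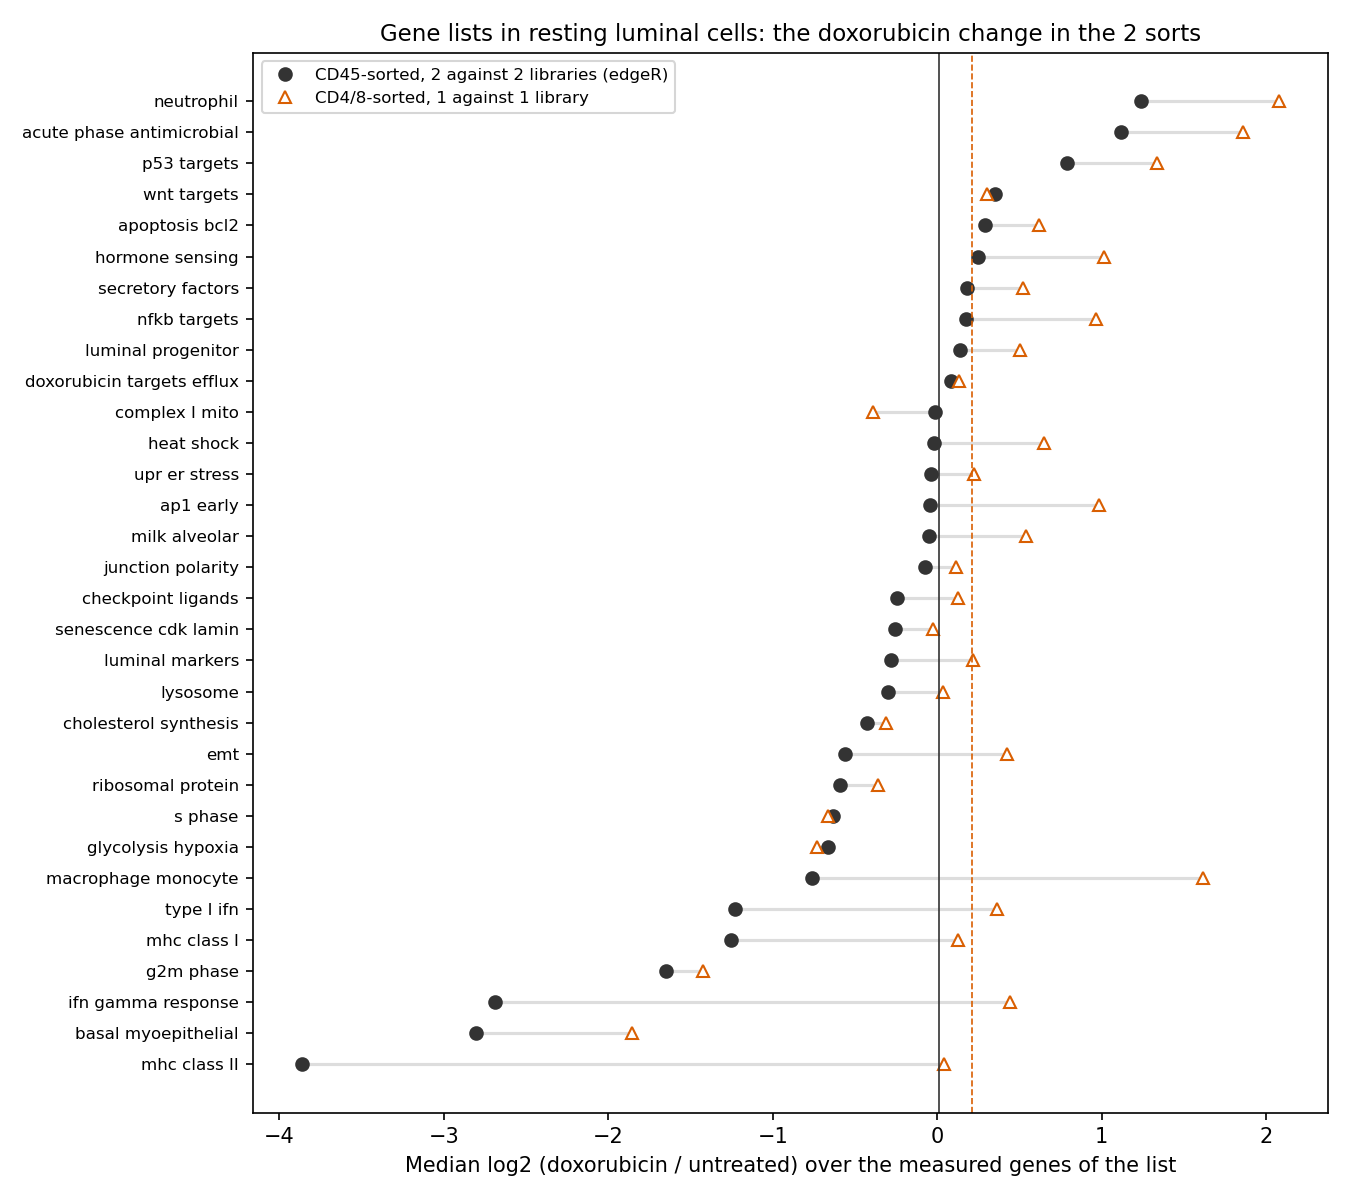
Median log2 ratio of doxorubicin over untreated for each gene list with at least 6 measured genes in both sorts, filled for the 4 CD45 libraries and open for the CD4/8 pair, with lines at the median of all genes. The p53 list lies to the right in both sorts, while the interferon-gamma list lies at -2.69 in one and at 0.44 in the other.

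The promoters of fallen genes are shown because interferon-induced genes often carry sites for interferon regulatory factors, with the core GAAANNGAAA. This motif was searched on both strands in the RefSeq promoter windows of build GRCm38.p6, which run from 250 bases before to 50 bases after a start. It was found for 1079 of 27025 genes, 3.99%, for 295 of 8189 tested genes, 3.60%, for 14 of the 39 fallen genes with a window, 35.9%, and for 2 of the 17 risen ones, 11.8%. Matches may overlap each other. A match is a description of the letters, not a bound site.
The last 80 bases before the start are given 5′ to 3′ on the gene's strand, with matches of GAAANNGAAA or its reverse complement in capitals.
Igtp: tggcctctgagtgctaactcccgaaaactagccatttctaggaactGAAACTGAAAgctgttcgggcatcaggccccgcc
Irgm2: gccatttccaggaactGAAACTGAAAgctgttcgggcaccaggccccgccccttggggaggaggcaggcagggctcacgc
Irgm1: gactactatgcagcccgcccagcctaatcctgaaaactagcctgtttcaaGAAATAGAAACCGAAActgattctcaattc
Gbp2: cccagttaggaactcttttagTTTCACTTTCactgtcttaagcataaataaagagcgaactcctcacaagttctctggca
Gbp7: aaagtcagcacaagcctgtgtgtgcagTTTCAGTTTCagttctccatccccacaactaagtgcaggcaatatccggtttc
Igtp (chr11:58199476-58199555) and Irgm2 (chr11:58214897-58214976) lie on the plus strand and hold the same 10 letters, Irgm1 (chr11:48871421-48871500, minus strand) holds 2 overlapping matches, and Gbp2 (chr3:142620583-142620662) and Gbp7 (chr3:142530256-142530335), both on the plus strand, hold the reverse form. Irgm2 fell from 24.6 and 43.7 to 4.68 and 7.65 and Gbp7 from 57.9 and 66.8 to 7.81 and 14.7 in the CD45 libraries.

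The doxorubicin change of the members was set against that of Ptprc-positive cells (at least 1 Ptprc and no Epcam UMI) of the same 4 libraries, with the library as a block. Of 13836 genes, 47 had a higher change in members, 0.34%, and 283 a lower one, 2.05%. In Ptprc-positive cells themselves 22 of 36 tested interferon-gamma genes fell, and of 43 tested p53 targets 12 rose and 1 fell, beside 5.4% of 13845 genes higher and 3.07% lower. The Ptprc-positive population differed in makeup between the groups, as its neutrophil marker sum above shows, and its MHC class II sum went from 15834 and 30074 to 4524 and 5076. For Cdkn1a the difference was 2.06 on the log2 scale (SE 0.34, adjusted p = 0.0074), with a change of 1.29 in Ptprc-positive cells. Psrc1 differed by 2.26 (SE 0.44) and Bax by 1.24 (SE 0.27).

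Igtp fell more in members than in Ptprc-positive cells, by a difference of -2.80 (SE 0.28, adjusted p = 0.00043). Icam1, the adhesion molecule that binds leukocyte integrins, fell in members from 139 and 126 to 41.4 and 22.95, while in Ptprc-positive cells it was at 169 and 159 against 397 and 272. That difference was -3.29 (SE 0.27, adjusted p = 0.000105). Of 36 tested genes on the interferon-gamma list 10 had a lower change in members and none a higher one. Of 43 tested p53 targets 4 had a higher and 1 a lower change.

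Genes of the cell cycle show what the rule removed and what it left. In members, 7 of 33 G2/M genes passed the low-count filter and none was called, with a median log2 change of -1.65. Of 25 tested S phase genes none was called, with a median of -0.64, but 23 had a negative change. In the CD4/8 pair 9 of 15 measured G2/M genes were at least 2-fold lower and 2 higher. Of 28 measured S phase genes 11 were lower and 1 higher, beside 3.4% and 11.1% of all genes of the pair. In all luminal cells, dividing ones included, 28 of 33 G2/M genes and 22 of 31 S phase genes fell, and 769 genes were called instead of 78, 2.65% of 11886 higher and 3.82% lower. The p53 list kept its direction there, with 18 of 41 tested targets higher, and so did the interferon-gamma list, with 24 of 35 lower and 1 higher.

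Other lists held few calls or none. Of 20 acute phase and antimicrobial genes 13 were tested and Chil1 alone rose, with a median of 1.12. In the CD4/8 pair 12 of 17 measured were at least 2-fold higher, beside 11.1% of 12241 genes. Of 14 basal markers 6 were tested and Krt17, a basal keratin, fell from 18.2 and 28.3 to 1.56 and 5.42. The basal sum was 742 in the shallow untreated replicate 2, against 61.3 in untreated replicate 1 and 28.1 and 47.2 after doxorubicin. None of the 13 luminal markers was called, with a median of -0.28. All 21 tested ribosomal protein genes had a negative log2 change (median -0.59) and none was called, and the glycolysis list had a median of -0.67 with none called. In the CD4/8 pair 9 of 24 measured glycolysis genes were at least 2-fold lower and none higher, beside 3.4% and 11.1% of all genes. Of the same 24 genes, 4 were called lower in the fit of 6 libraries and 8 in all luminal cells. Heat shock, endoplasmic reticulum stress, lysosome, junction and respiratory complex I lists had medians between -0.30 and -0.01 and no call. Of 17 cell cycle inhibitor, lamin and related genes, 15 were tested and Cdkn1a alone was called. Lmnb1, the lamin lost in many arrested cells, was at 30.2 and 25.7 against 25.8 and 26.1, and Cdkn2a was at 1.22 and 5.14 against 6.25 and 5.10.

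The antibody arms were each set against the same IgG library, so the 3 comparisons share it and are given side by side. In the IgG arm itself the interferon-gamma list summed to 7070, against 2526 at 48 h after doxorubicin. Of its 36 measured genes 27 were at least 2-fold higher in the IgG arm, beside 4.03% of 12086 genes. Cd74 stood at 2064 there and at 354 at 48 h, and H2-Aa, an MHC class II chain, at 412 and 64.2. The order of the 6 CD4/8 libraries in the interferon-gamma sum was untreated at 1838, anti-PD1 at 2039, 48 h at 2526, IgG at 7070, both antibodies at 11429 and anti-CTLA4 at 12747. No spread between replicates is known for these groups.

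With anti-CTLA4, 12 of 36 measured interferon-gamma genes were at least 2-fold higher than with IgG and none 2-fold lower, beside 3.76% and 1.87% of the 9339 genes measured. Gbp2 stood at 1349 against 411.5, a ratio of 3.28 (3.06 to 3.52), and Cxcl9 at 2542 against 807, a ratio of 3.15 (3.00 to 3.31). Cd274 stood at 63.7 against 17.4, a ratio of 3.66 (2.61 to 5.22). MHC class I genes differed little, none of 23 by 2-fold. Among the largest ratios were Fcgbp, a mucin-like secreted protein (571.2 against 57.0), Serpina3g, a serine protease inhibitor (296 against 31.7), and Alox12e, a lipoxygenase (201 against 21.4), with Fam25c (60 against 5.54) and Col6a1, a collagen VI chain (48.5 against 5.14). Among the lowest ratios were those of Ecrg4, Cck, Sphk1 and Fam167a, between 0.151 and 0.234, each with 10 to 15 UMIs in the anti-CTLA4 members.

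With both antibodies, 9 of 36 interferon-gamma genes were at least 2-fold higher than with IgG and none lower, beside 3.64% and 4.42% of 8500 genes. Gbp2 stood at 1110, a ratio of 2.70 (2.49 to 2.92), Cxcl9 at 2270.5, a ratio of 2.82 (2.66 to 2.98), and Cd274 at 34.6, a ratio of 1.99 (1.29 to 3.07). Fam25c, Fcgbp, Alox12e and Serpina3g were again among the 5 highest ratios, Fcgbp at 1396 against 57.0 (24.5, 20.7 to 29.2), with the heparin-binding growth factor Ptn (393 against 24.1). The lowest included the water channel Aqp1 (18.4 against 106) and the mitophagy gene Bnip3 (8.11 against 41.2). Of 20 measured S phase genes 10 were at least 2-fold lower.

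With anti-PD1 the interferon genes stood lower than with IgG. Of 36 measured interferon-gamma genes 30 were at least 2-fold lower and none 2-fold higher, beside 3.24% and 5.01% of 10950 genes, and the list's median log2 ratio was -1.84. Cxcl9 stood at 63.0 against 807, a ratio of 0.0782 (0.0713 to 0.0856), and Cd274 at 4.89 against 17.4, a ratio of 0.281 (0.182 to 0.434). Cd74 stood at 216 against 2064. Of 8 measured MHC class II genes 7 were at least 2-fold lower, as were 19 of 30 type I interferon genes. H2-K1 was closer, at 3557 against 4424. Highest in ratio were Gsta3, a glutathione transferase (43.6 against 3.96), Igfbp4, Arl4d, Ptn and Acta2, and lowest, with Cxcl9 and Cd74, were Ubd, an interferon-induced ubiquitin-like protein (15.6 against 202), Apol10b and Upp1.

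Marker RNA of other cells also differed between these arms. The 14 macrophage markers summed to 919 in the anti-PD1 members, 317 with IgG, 376 with anti-CTLA4 and 213 with both antibodies, with 0 to 3 of the 14 at 0. The 14 T and natural killer cell markers summed to between 22.6 and 49.4 in these 4 libraries, with 2 or 3 at 0, against 5652 to 8681 in their Ptprc-positive cells. The 14 basal markers summed to 133 with anti-PD1 and 68.9 with IgG. The 10 fibroblast markers summed to 164 with anti-CTLA4, 30.9 with IgG, 41.3 with anti-PD1 and 65.6 with both antibodies, with 1 to 8 at 0. Their part in the arms' differences was not tested. The interferon-gamma sum of Ptprc-positive cells in the same 4 libraries lay between 2547 and 3419, below that of the members in the IgG, anti-CTLA4 and both-antibodies arms and above it in the anti-PD1 arm.

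**Figure D5:**
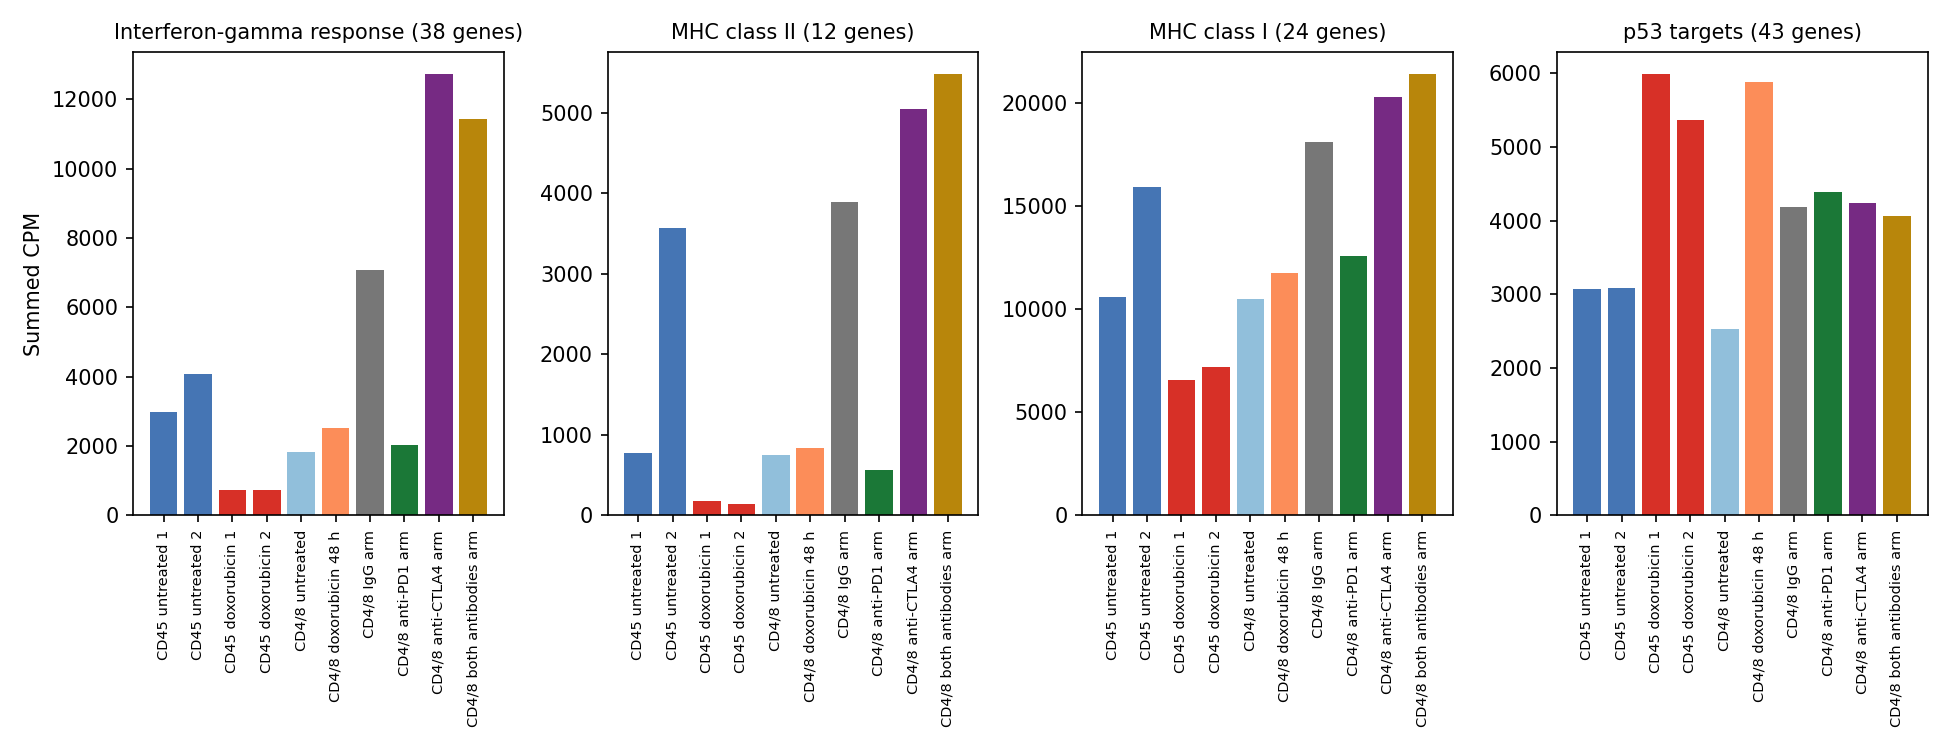
Summed CPM of 4 gene lists in resting luminal cells, 1 bar per sorted library, on linear axes from 0. The interferon-gamma bars run from 724 in a doxorubicin CD45 library to 12747 with anti-CTLA4, while the p53 bars of the 4 later arms lie between 4059 and 4394.

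Genes of hormone-sensing luminal cells were higher in both arms with anti-CTLA4. Of the 11 genes of that list only 7 had enough UMIs to be measured in each of the 2 comparisons with IgG. Under anti-CTLA4 5 of the 7 were at least 2-fold higher than with IgG, beside 3.76% of 9339 genes. Under both antibodies 6 of the 7 were, beside 3.64% of 8500 genes. The list's 11 genes summed to 862 with IgG, 1095 with anti-PD1, 2354 with anti-CTLA4 and 2357 with both antibodies. Most of that sum was Ly6a, a surface antigen that interferon also induces, at 634, 762.4, 1815 and 1794. Prlr stood at 60.5 with IgG, 198 with anti-CTLA4 and 141 with both, and the growth factor Areg at 12.3, 59.6 and 114. Cd47, the signal against uptake by macrophages, stood at 137 with IgG, 262 with anti-CTLA4 and 343 with both. The milk genes Lalba and Csn1s1 were lower in the IgG arm than at 48 h, at 30.9 against 254.5 and 11.9 against 150.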

How the data were processed

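The deposited matrices hold counts, raw UMIs per gene and cell, which the authors made with Cell Ranger 6.0.0 per the file headers with the mm10 (GRCm38) build per the submitters' processing notes in the labels. For the table of unsorted cells the submitters' processing notes name Cell Ranger and Seurat without versions. The 10 sorted matrices name no genes, and their rows were named by the order of the 32285 genes in the table of unsorted cells, which the gene totals bear out (correlation of log totals 0.954 to 0.984 in place, at most 0.354 when shifted). A bulk table was not used because its 12 columns match no sample.

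Members' UMIs were summed per library and tested with edgeR 4.0.16 (quasi-likelihood, robust, TMM, filterByExpr, R 4.3.3), with DESeq2 1.42.0 as an alternative. Levels (CPM) are UMIs scaled to 1000000 per library without TMM. CD4/8 groups are single libraries, so they have ratios with exact intervals only, for genes with at least 30 UMIs in the pair. On simulated data the doxorubicin test recovered 75.8% of genes changed by 2 on the log2 scale and 7.22% of those changed by 1. Of its calls 8.14% were unchanged genes. The simulated test against Ptprc-positive cells recovered 65.3% and 10.1%, with 23.4% of calls unchanged. Its simulated members and Ptprc-positive cells had the same mean profile, which the real populations do not. These rates may therefore not hold for the test against Ptprc-positive cells as run. Genes are named by rule: by log2 change, the top 10 called upward and the top 10 called downward with a mean of at least 20 CPM whose groups did not overlap and whose level was at least that of Ptprc-positive cells, Cd274, Cd80, Cdkn1a, Wnt1 and the gate genes, and up to 4 genes per list; for single libraries, the 5 largest ratios each way with at least 10 UMIs in each and the same condition on Ptprc-positive cells. Some genes that the rule names are not reported here. Other genes were chosen after their values were seen. The members and the 37 gene lists were chosen with earlier results of these data known.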

Additional observations from a re-analysis of the deposited data

Results flagged for a closer look

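For 19 called genes named by rule, the doxorubicin change in the CD45 libraries differed between resting luminal and Ptprc-positive cells by edgeR's interaction test. The difference, luminal minus Ptprc-positive on the log2 scale, was positive for 4: Cdkn1a (2.06), Psrc1 (2.26), Snhg15 (2.11) and Bax (1.24). It was negative for interferon-induced genes, with Igtp at -2.80, Gbp6 at -2.21, Irgm1 at -1.56, Gbp2 at -1.52, Ifi47 at -1.99, Cxcl9 at -4.09, Ifit1 at -2.79, Rsad2 at -3.54, Cmpk2 at -2.99 and Ifit3b at -4.71. It was also negative for Tnfsf10 (-2.45), Mt1 (-2.36), Lgals9 (-1.44), Icam1 (-3.29) and H2-DMa (-1.89).

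Of the 38 called genes named by rule, 14 had a CD4/8 ratio on the other side of 1 from their change in the CD45 libraries. In the CD45 libraries their groups did not overlap. Over all called genes, 32 of the 54 fallen were higher in the pair and 1 of the 24 risen was lower. This difference was not tested, since each CD4/8 group is 1 library. Those of the 14 that fell in the CD45 libraries had ratios of doxorubicin over untreated above 1 in the pair: 13.9 for Cxcl9, 2.36 for Sectm1b, 2.20 for Gbp2, 1.75 for Irgm2, 1.56 for Gbp6, 1.54 for Tnfsf10, 1.20 for Lgals9, 1.20 for Tap1, 1.19 for Ifit3b, 1.17 for Igtp, 1.05 for Irgm1, 1.04 for Ifi47 and 1.004 for Psmb10 (exact interval 0.884 to 1.14). All genes of the pair had a median log2 ratio of 0.21. Psmb10, Ifi47 and Irgm1 lay below that median and Igtp (0.23 on the log2 scale) close to it, so these 4 were not clearly above the shift of the pair. Cxcl3, which rose in the CD45 libraries, had a ratio of 0.678.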

How the results depend on the processing

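The 78 calls of the CD45 test became 317 without a filter on low counts, 49 at 20 CPM or more, 229 with 6 libraries and sort as a term, 769 in all luminal cells, 3 in cells with no UMI of the G2/M list and 26 with cells thinned to 1500 UMIs. Leaving out 1 library gave 20 to 272 calls: 20 without doxorubicin replicate 2, with 13 of the 78 shared, 84 without the shallow untreated replicate 2, with 58 shared, and 272 without untreated replicate 1. Of the interferon-gamma list 7 to 24 genes fell in those 4 fits and of the p53 list 4 to 8 rose. The 330 genes of the difference from Ptprc-positive cells became 868 without the low-count filter and 590 to 739 with 1 library left out. None of the called genes named by rule that an alternative could fit, between 21 and 38 of 38, changed sign there. Groups of all called genes did not overlap and most alternatives refit the same libraries, so a change of sign was hardly possible. Of those fitted, 21 of 37 in 6 libraries and 22 of 23 in cells with no UMI of the G2/M list no longer passed. With DESeq2 this was 1 of 38. The fit in cells with no UMI of the G2/M list held 16 to 79 members per library. It tested 3427 genes against 10363, so a lost call there cannot be told apart from the loss of cells. At 3-fold, the genes past the threshold went from 1779 to 686 for doxorubicin in the CD4/8 pair, 904 to 347 for anti-PD1, 526 to 155 for anti-CTLA4, 685 to 211 for both antibodies and 1682 to 639 for the IgG arm against 48 h. With 60 UMIs required, they were 587, 286 and 361 for the 3 antibody comparisons. With the replicate block 211 genes were called, all 78 among them. The libraries share only a number (correlation 0.128 for same numbers, -0.128 for crossed), so this paired fit is not the design. Depth limits low genes: Cd80, Wnt1 and 5 of 12 MHC class II genes did not pass the low-count filter.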

Other observations

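The table of unsorted tumour cells holds 2 barcode sets, which share 0 barcodes and which no label ties to a treatment. Set 1 had 563 resting luminal cells among 1508 cells and set 2 had 384 among 2508. Luminal cells with a Mki67 or Top2a UMI made up 8.90% in set 1 and 37.6% in set 2, or 1.66% and 13.2% with cells thinned to 1500 UMIs. In their members Cdkn1a stood at 707 CPM in set 1 and 52.0 in set 2, Psrc1 at 174 and 27.9, Ephx1 at 175 and 36.9, and Gas6 at 580.9 and 120. The summed level of the p53 list was 5615.5 and 3090.5, that of the interferon-gamma list 2270 and 1528, and that of MHC class II 341 and 464. Cd274 stood at 5.78 and 2.52.

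In these 2 sets, extracted without an immune sort, the luminal progenitor gene Kit, a receptor tyrosine kinase, stood at 620 and 464, against 141.5 to 489 over the 10 sorted libraries. Igfbp5, an insulin-like growth factor binding protein of the involuting gland, stood at 7736 and 3775, against 1823 to 6638. For both genes set 2 lay within the range of the sorted libraries.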
